A study of Mus musculus with 8 samples.

Results

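Mouse genes named Zfp and a number code for zinc finger proteins, and 108 of the 331 such genes read on the array (32.6%) met the level set for expression in wild type embryos at the 2-cell stage. A member is a gene whose only symbol on a probe set is Zfp followed by a number, apart from the Zfp36 genes, Zfp352 and Zfp809, and whose signal averaged 150 or more over the 4 wild type arrays. Each gene was read from its probe set with the highest wild type mean. The signal is the MAS5 intensity of a probe set, a linear measure of brightness, and every array had been scaled to a trimmed mean of 150. The study compared 4 samples labelled wild type with 4 labelled Brg1 mutant, each a pool of RNA from 20 whole embryos. The series title concerns maternal BRG1, the chromatin remodelling ATPase encoded by Smarca4, and the activation of the embryo's genome. The alleles, the strain, any Cre driver and the age of the mothers are not given in the sources used here, and the labels call the samples biological replicates without naming separate mothers or collections. The p-values therefore measure the spread between these samples, which may be technical. In pooled embryos, less RNA per embryo and fewer healthy embryos cannot be told apart.

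Most Zfp genes belong to the C2H2 class, in which a pair of cysteines and a pair of histidines hold a zinc ion and each finger reads a few bases of DNA. Many carry a KRAB domain, which recruits TRIM28 and through it SETDB1, heterochromatin proteins and histone deacetylases, and are known for silencing retroelements and holding imprints in the early embryo. KRAB zinc finger genes lie in tandem clusters that arose by duplication, so that related members can share long stretches of sequence. Other genes with the same kind of name act elsewhere, on RNA, on ribosomes, in mitosis or in ubiquitin transfer.

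Some samples stood apart, and the counts of calls are therefore also given for mutant replicates 1 and 2 alone and 3 and 4 alone. Signal of 18 granulosa and cumulus markers on the array summed to between 2134.4 and 3111.9 in wild type samples, to 1781.2 and 2775.4 in mutant replicates 2 and 1, and to 30267 and 25112 in mutant replicates 3 and 4. Of these 18, 17 and 16 were above a background bound in mutant replicates 3 and 4, against 8 to 12 in the other samples. The steroid enzyme gene Hsd3b1 read 8835.3 and 6889 in replicates 3 and 4 and at most 50.5 elsewhere, while Has2, Amh and Ptx3 read at most 31.9 on every array. Spike-in control signal in mutant replicates 1 and 2 was 4.81 and 3.37 times the wild type mean, and the ratio of 3 prime to 5 prime actin signal was 7.04 and 4.88 in mutant replicates 3 and 4 against at least 12.9 elsewhere. The same ratio for Gapdh was lower in all 4 mutant samples (6.63 to 7.33) than in all 4 wild type samples (8.58 to 10.1). The part of these differences in the results below was not tested. Of the embryo markers, Zp3, Gdf9, Bmp15, Nlrp5, Zar1, Oosp1 and Pou5f1 were above the bound on all 8 arrays. Their signal summed to between 11542 and 16286 in wild type samples, to 34634 and 39172 in mutant replicates 1 and 2, and to 16959 and 14893 in replicates 3 and 4. Zar1 rose 6.77-fold (limma adjusted p = 0.000674) and Gdf9 2.40-fold (limma adjusted p = 0.0343) in mutant samples, and the other 5 did not pass. The part of this oocyte signal in the results was not tested either. Smarca4 itself read 796, 632.1, 612.1 and 660.6 in wild type and 387.5, 200.9, 273 and 291.3 in mutant samples (log2 change -1.26, limma adjusted p = 0.0211).

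More of the expressed Zfp genes fell than rose in Brg1 mutant embryos. Of the 108, 18 fell, 1 rose and 89 did not pass (limma, Benjamini-Hochberg adjusted p under 0.05), and all 108 had been bright enough to enter the test. The 18 are 16.7% of the members, beside 3.58% of all 22518 tested probe sets called lower and 7.73% of the 6328 genes with a wild type mean of 150 or more. The 1 that rose is 0.926%, beside 2.98% and 1.74% called higher. The median log2 change was -0.51 over the members, -0.24 over the genes at 150 or more and -0.05 over all tested probe sets. In 87 members the log2 change was below 0 and in 21 above it. All 4 mutant samples lay below all 4 wild type samples for 28 members (25.9%), beside 9.67% of all tested probe sets and 18% of the genes at 150 or more. They lay above for 4 members, beside 7.83% and 5.31%, and these were Zfp979, Zfp955b, Zfp512 and Zfp568. The wild type level chose the members, and a choice by a high wild type reading favours a lower mutant one. With Zfp genes chosen by a mutant mean of 150 or more instead, 13 of 104 fell, 4 rose and the median was -0.28. The share and median of all genes chosen by that rule were not computed, so these values have no background beside them. Whether the shares of members differ from those of other genes was not tested.

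**Figure D1:**
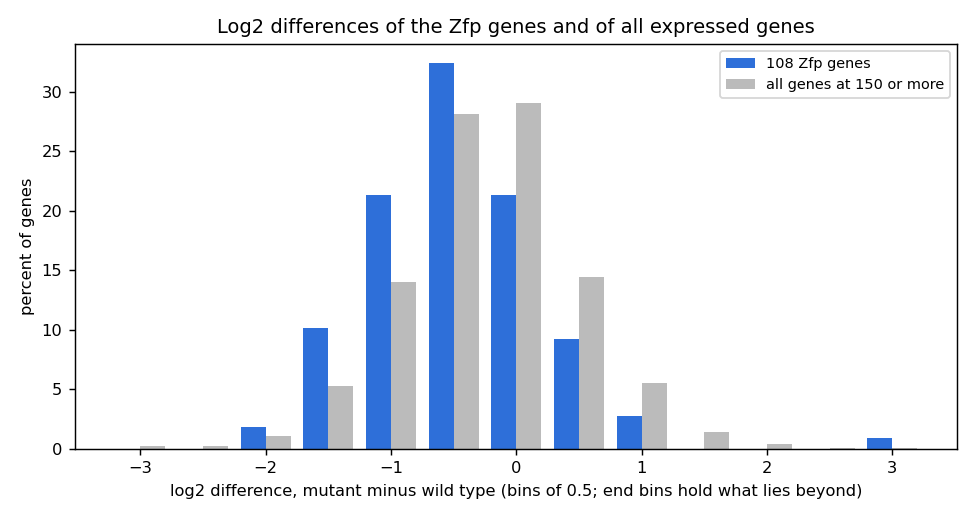
The share of genes (percent, vertical axis) in bins of the log2 difference between mutant and wild type samples, for the 108 Zfp genes and for the 6328 tested genes with a wild type mean of 150 or more. The Zfp genes peak at -0.5 with 35 genes (32.4%), and 23 lie in the bin at -1. The 6328 genes, which include the Zfp genes, have 29.1% in the bin at 0 and nearly as many, 28.2%, at -0.5.

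The number of calls hung on single samples. Without wild type replicates 1, 2, 3 and 4 the number of members called lower was 2, 5, 2 and 2, and without mutant replicates 1, 2, 3 and 4 it was 29, 23, 3 and 3. Calls over the whole array moved too. Of all 22518 tested probe sets, 807 were called lower over all samples. Without each wild type replicate in turn the number was 49, 247, 101 and 33, and without each mutant replicate 1447, 1515, 153 and 221. Of the 19 called members, 2 kept the call in all 8 of these fits, Zfp703 and Zfp574. The median log2 change over the members lay between -0.577 and -0.435 in these fits.

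Zfp703 encodes a transcriptional corepressor of the NET family. It read 471.7, 504, 535.1 and 670.4 in wild type samples and 171, 154.3, 172.2 and 146.9 in mutant samples. Every mutant sample was well under the lowest wild type sample. It fell 3.36-fold (log2 change -1.75, SE 0.216, limma adjusted p = 0.00687). Zfp574 read 1646.8, 1955.2, 1493.7 and 1460.3 in wild type samples and 486.1, 522, 661.4 and 461.2 in mutant samples, again without overlap. It fell 3.09-fold (log2 change -1.63, SE 0.22, limma adjusted p = 0.00788), and its other tested probe set, at a log2 change of -1.08, stayed short of the threshold (limma adjusted p = 0.0535). Both genes fell in each mutant pair taken alone. For Zfp703 the log2 change was -1.73 with mutant replicates 1 and 2 alone and -1.76 with replicates 3 and 4 alone, and for Zfp574 it was -1.69 and -1.56. Leaving out 1 sample gave a limma adjusted p of at most 0.0408 for Zfp703 and at most 0.0434 for Zfp574.

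Zfp148, known as ZBP-89, binds GC-rich promoter sequences. It read 958.5, 908.2, 1071.5 and 969.5 in wild type samples and 428.4, 480.7, 392.6 and 301.9 in mutant samples, and the groups lay far apart. It fell 2.47-fold (log2 change -1.30, SE 0.221, limma adjusted p = 0.0145). Of its 5 other tested probe sets, 1 fell (log2 change -1.17, limma adjusted p = 0.0185) and 4 did not pass, 3 of which had a log2 change above 0. With mutant replicates 3 and 4 alone, 2 of those 3 rose (log2 changes of 1.94 and 1.99, limma adjusted p = 0.000167 and 0.0012). Leaving out 1 sample raised the limma adjusted p of Zfp148 to at most 0.0587, and 5 of the 8 fits kept the call.

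Zfp932, Zfp961 and Zfp518a made up the rest of the 6 members called lower over all samples and also without mutant replicates 3 and 4, where the granulosa signal lay. Zfp932 read 477.4, 444.1, 871.5 and 786.8 in wild type samples and 191.3, 280.4, 277.7 and 269.5 in mutant samples. It fell 2.45-fold (limma adjusted p = 0.0289). Zfp961 read 649, 643.4, 578 and 621.3 in wild type samples and 379.9, 194.3, 292.7 and 303.7 in mutant samples, a fall of 2.19-fold (limma adjusted p = 0.0280). On its other tested probe set the log2 change was 0.18, short of the threshold. Zfp518a read between 700.4 and 824.1 in wild type and between 299.9 and 413.3 in mutant samples. It fell 2.13-fold (limma adjusted p = 0.0209).

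The other 12 members called lower lost their call without mutant replicates 3 and 4 and kept it without replicates 1 and 2. Zfp616 had the largest estimated fall of the called members, 3.79-fold (log2 change -1.92, SE 0.442, limma adjusted p = 0.0327). It read 216.1, 119.3, 367.4 and 345.8 in wild type samples and 63, 120.9, 55.3 and 37.7 in mutant samples, so that mutant replicate 2 overlapped wild type replicate 2. Zfp560 read 2467.5, 1587.2, 4111.2 and 4124.9 in wild type samples, 1439.3 and 1328.2 in mutant replicates 1 and 2, and 573.3 and 602.6 in replicates 3 and 4. It fell 3.17-fold (limma adjusted p = 0.0411), and its log2 change was -1.05 with mutant replicates 1 and 2 alone against -2.28 with replicates 3 and 4 alone. Zfp936 fell 2.85-fold, Zfp639 2.53-fold, Zfp367 2.41-fold, Zfp553 2.37-fold and Zfp677 2.33-fold (limma adjusted p between 0.0216 and 0.0471). A second probe set of Zfp367 also fell (log2 change -1.80, limma adjusted p = 0.0237). Zfp939, Zfp142, Zfp623, Zfp958 and Zfp770 completed the 18, with falls between 1.83-fold and 2.16-fold (limma adjusted p between 0.0253 and 0.0494). Other tested probe sets were present for 8 of the 18 genes, 13 in all. Of these 13, 8 had a log2 change of the same sign, 2 were called lower and 0 were called higher. Besides Zfp616, the groups overlapped for none of the 18. Of the 19 calls, 3 were kept without mutant replicate 3 and 3 without mutant replicate 4. Without wild type replicate 1, 3 or 4 the number kept was 2, and without wild type replicate 2 it was 5.

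**Figure D2:**
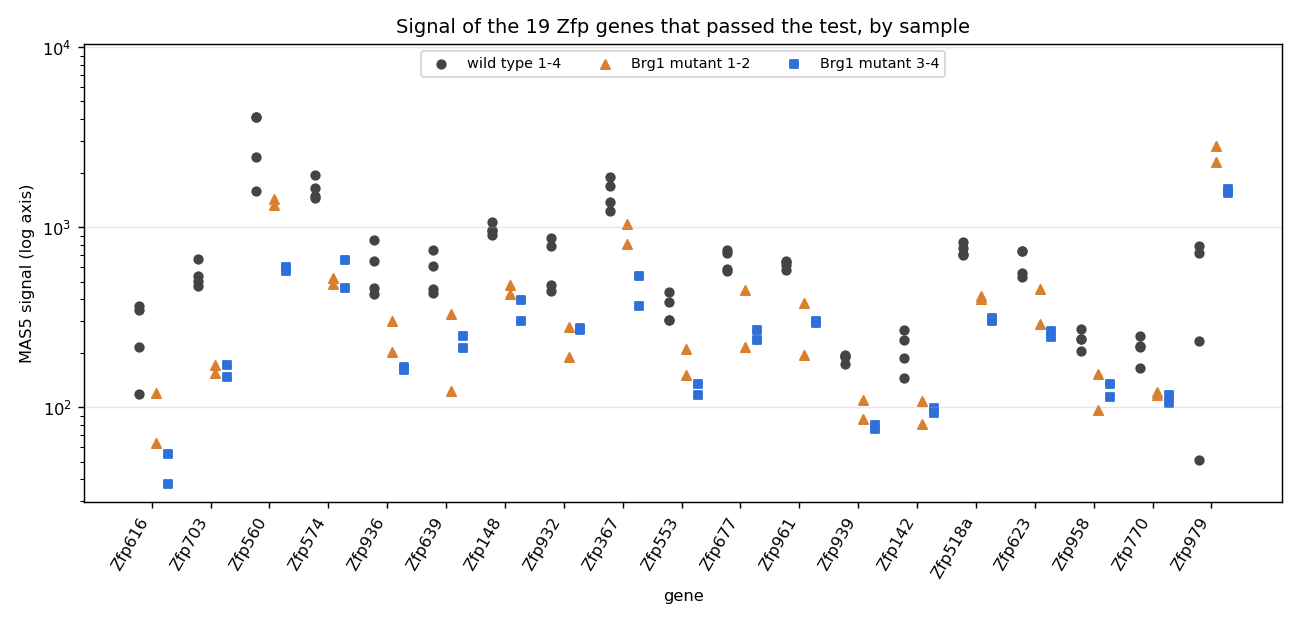
MAS5 signal (vertical log axis) of the 19 Zfp genes that passed the test, with 1 point per sample for 4 wild type samples, mutant replicates 1 and 2, and mutant replicates 3 and 4. For 17 of the 18 lower genes every mutant point lies under every wild type point, and for Zfp979 every mutant point lies above.

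The promoters of the genes that fell are shown for a motif that many of them hold. Of the 108 members, 91 had a window in the RefSeq promoter table (GRCm38.p6), and the 250 bases before the start were read, 1 window for each listed start. Zfp560 (chr9:20385159-20385408, minus strand), Zfp936 (chr7:43177340-43177589, plus strand) and Zfp932 (chr5:109996260-109996509, plus strand) are the 3 called members with the largest falls whose window holds CCGGAA, the core letters that ETS factors are known to bind. Capitals mark that motif, on either strand, so that it appears as its reverse complement where it lies on the other strand.
Zfp560: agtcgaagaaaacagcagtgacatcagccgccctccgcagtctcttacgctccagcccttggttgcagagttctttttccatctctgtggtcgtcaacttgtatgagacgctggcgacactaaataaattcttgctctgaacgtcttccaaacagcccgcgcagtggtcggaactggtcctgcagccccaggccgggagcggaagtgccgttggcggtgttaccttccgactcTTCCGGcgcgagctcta
Zfp936: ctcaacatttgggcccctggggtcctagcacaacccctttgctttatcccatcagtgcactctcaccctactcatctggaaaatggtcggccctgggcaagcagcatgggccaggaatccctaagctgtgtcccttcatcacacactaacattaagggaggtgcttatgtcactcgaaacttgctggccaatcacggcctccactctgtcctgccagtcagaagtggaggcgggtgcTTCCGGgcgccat
Zfp932: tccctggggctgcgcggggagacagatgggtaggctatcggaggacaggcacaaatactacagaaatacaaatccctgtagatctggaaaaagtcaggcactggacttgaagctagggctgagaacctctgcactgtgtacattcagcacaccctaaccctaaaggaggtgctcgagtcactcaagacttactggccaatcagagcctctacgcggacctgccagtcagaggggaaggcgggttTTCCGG
In all 3 windows the motif stands near the right-hand end, close to the start of the gene. CCGGAA was present in 12 of 21 windows of members called lower (57.1%), from 9 genes. These 21 windows came from 15 of the 18 genes called lower. The motif was present in 31% of the 116 windows of all members, in 29% of the 217 windows of Zfp genes under 150 and in 12% of all 32851 windows. CCAAT was present in 57.1%, 45.7%, 41% and 33.8% of the same sets, and both motifs together in 42.9%, 16.4%, 12.4% and 3.97%. The GC box GGGCGG was present in 56.9% of member windows and 32.7% of all windows, and TATAAA in 4.31% and 12.4%. Base composition differed between the sets. The median share of G and C was 56.8%, 57.4%, 53.6% and 52.4% in the order above. The median ratio of observed to expected CG pairs was 0.613, 0.689, 0.609 and 0.373. The part of base composition in the motif shares was not tested, and windows of all genes at 150 or more were not counted apart. Windows of 1 gene can overlap, related genes share sequence, and a match describes letters, with no statement on binding.

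**Figure D3:**
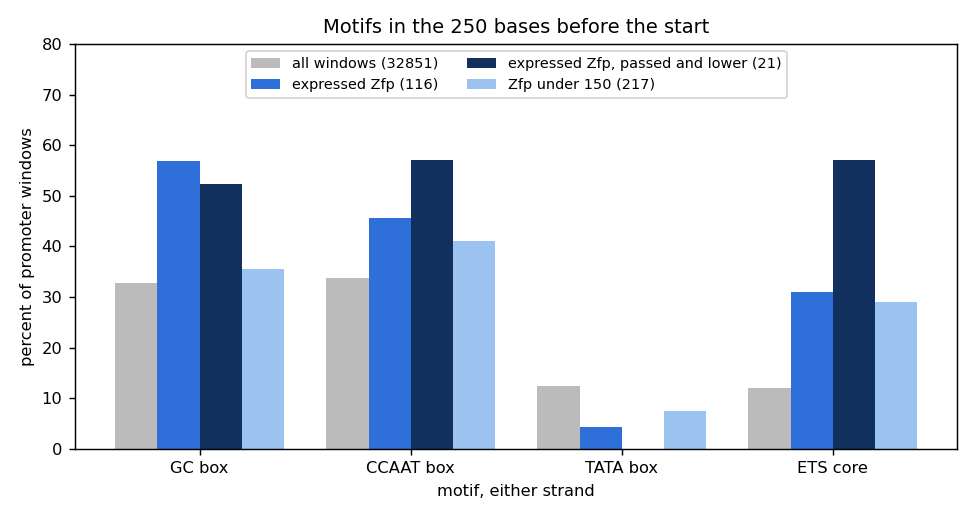
Share of promoter windows (percent, vertical axis) that hold each of 4 motifs on either strand, for all windows, windows of the expressed Zfp genes, windows of those called lower, and windows of Zfp genes under 150. The bar of the called genes reaches 57.1% for the ETS core, against 12% for all windows, and stands at 0 for the TATA box.

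Zfp979 was the 1 member that rose. It read 51.2, 233.5, 787.7 and 716 in wild type samples and 2310.9, 2814.7, 1543.7 and 1628.7 in mutant samples. All mutant samples lay above all wild type samples, while wild type replicates 1 and 2 were far dimmer than 3 and 4. The estimated rise was 7.02-fold (log2 change 2.81, SE 0.734, limma adjusted p = 0.0479). The call was lost whichever sample was left out, with a limma adjusted p between 0.0592 and 0.112. Mutant replicates 3 and 4 alone gave a log2 change of 2.47 (limma adjusted p = 0.0577) and replicates 1 and 2 alone 3.15 (limma adjusted p = 0.0668), and neither passed. Without wild type replicates 1 and 2, the dim ones, the log2 change was 1.42 (limma adjusted p = 0.134), and without wild type replicates 3 and 4 it was 4.20 (limma adjusted p = 0.0868).

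Zfp982, a gene of the same chromosome, had a lower mean in mutant samples. It read 1123.2, 1028.2, 1344.1 and 1305.8 in wild type samples, 698.8 and 753.7 in mutant replicates 1 and 2, and 223.7 and 205.7 in replicates 3 and 4. Again no sample overlapped, but over all samples Zfp982 did not pass (log2 change -1.60, limma adjusted p = 0.0530). Without mutant replicates 1 and 2 it fell 5.56-fold (limma adjusted p = 2.59e-05). Its other tested probe set, also of the _x_at kind and dimmer, fell over all samples (log2 change -1.45, limma adjusted p = 0.0298). The 250 bases before the start of Zfp979 (chr4:147642509-147642758, minus strand) and of Zfp982 (chr4:147492167-147492416, plus strand, the one of its listed starts most like that of Zfp979) are shown because the log2 changes had opposite signs while the sequences are close copies. Capitals mark their longest shared run, of 42 bases.
Zfp979: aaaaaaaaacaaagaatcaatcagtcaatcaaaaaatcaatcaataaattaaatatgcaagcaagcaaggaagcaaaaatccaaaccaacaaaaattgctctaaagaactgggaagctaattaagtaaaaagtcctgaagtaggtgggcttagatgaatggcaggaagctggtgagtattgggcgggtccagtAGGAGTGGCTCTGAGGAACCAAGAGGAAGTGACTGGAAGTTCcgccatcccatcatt
Zfp982: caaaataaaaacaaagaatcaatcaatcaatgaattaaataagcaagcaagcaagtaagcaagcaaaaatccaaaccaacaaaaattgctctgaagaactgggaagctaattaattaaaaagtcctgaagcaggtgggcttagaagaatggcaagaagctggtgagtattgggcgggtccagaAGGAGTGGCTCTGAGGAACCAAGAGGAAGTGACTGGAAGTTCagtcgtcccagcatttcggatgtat
Over 238 aligned positions, 219 were identical (92%). The 42 bases were found in the windows of 4 genes in all, Zfp979, Zfp982, Zfp600 and Rex2, of which the first pair are members. The probe set of Zfp982 has a name ending in _x_at, which marks probes that may also bind other transcripts, and signals of close copies may not be fully separate. A further gene of this name series, Zfp991, read 43.9, 42.9, 251.2 and 329.2 in wild type and 140.5, 220.3, 198.2 and 269.4 in mutant samples, and did not pass (log2 change 0.85, limma adjusted p = 0.451).

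The mutant pairs differed in how many Zfp genes lay below wild type. With mutant replicates 1 and 2 alone, 10 members were called lower and 3 higher, beside 3.11% and 3.6% of all tested probe sets and 6.29% and 4.76% of the genes at 150 or more. With replicates 3 and 4 alone, 55 were called lower and 3 higher, which is 50.9% and 2.78% of the members, beside 23.2% and 18.3% of all tested probe sets and 38.1% and 12.9% of the genes at 150 or more. The median log2 change over the members was -0.31 in the first comparison and -0.75 in the second, while that of the genes at 150 or more was -0.13 and -0.41. Both comparisons share the 4 wild type samples. The pairs were set apart after their signals were known, so no test of one pair against the other was made. Per array, the median of the members' log2 differences from the wild type mean was -0.22 and -0.38 in mutant replicates 1 and 2 and -0.75 and -0.71 in replicates 3 and 4. For the genes at 150 or more it was -0.10, -0.12, -0.40 and -0.41 on the same arrays. Granulosa marker signal was high on the last 2 of these arrays, and its part was not tested.

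**Figure D4:**
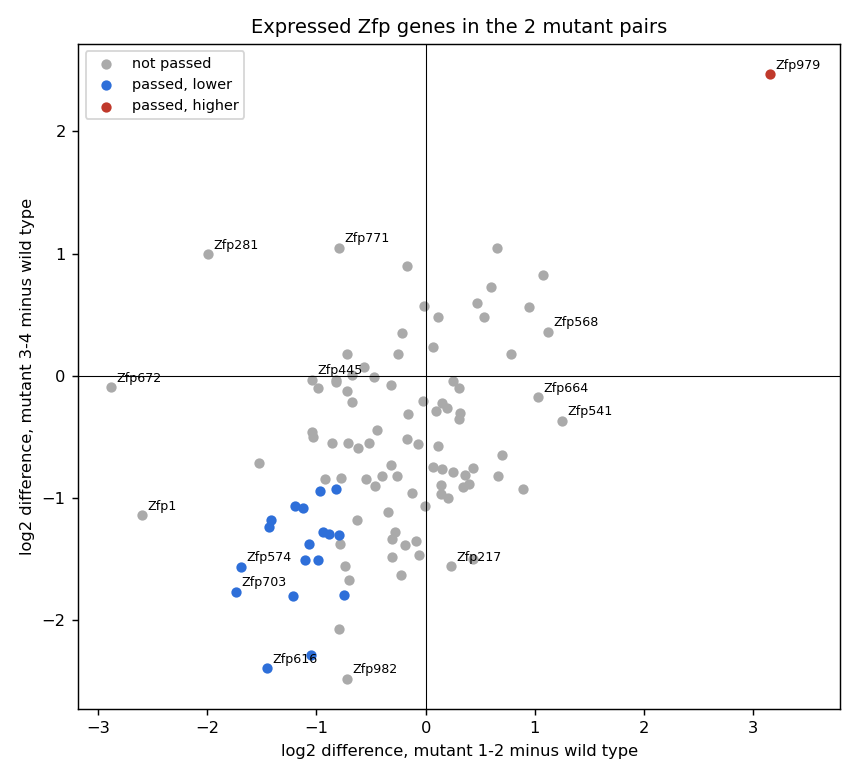
Log2 difference from wild type for each of the 108 Zfp genes, with mutant replicates 1 and 2 on the horizontal axis and replicates 3 and 4 on the vertical axis, coloured by the call over all samples. Both axes share the wild type samples. The genes called lower lie at the lower left, Zfp979 lies at the upper right, and Zfp281 lies at -1.997 and 0.99.

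Some members had a call with 1 or both mutant pairs taken alone but did not pass over all samples. Zfp281, a regulator of pluripotent cells, read 266.6, 324.2, 218.2 and 224.3 in wild type samples, 58.6 and 69.7 in mutant replicates 1 and 2, and 513.9 and 502.5 in replicates 3 and 4. The first pair lay far below wild type and the second far above it. It fell 3.99-fold with replicates 1 and 2 alone (limma adjusted p = 0.00894), rose 1.99-fold with replicates 3 and 4 alone (limma adjusted p = 0.00639) and did not pass over all samples (log2 change -0.50, limma adjusted p = 0.702). Its other tested probe set had log2 changes of -0.97 and 0.60 in the pairs. Zfp445, a KRAB zinc finger protein known to help hold imprints, was picked after its values were seen. It read 1179.9, 1037.3, 929.1 and 990.4 in wild type samples, 521.2 and 479.5 in mutant replicates 1 and 2, and 1015.8 and 999.2 in replicates 3 and 4. It fell 2.06-fold in the first pair (limma adjusted p = 0.0257), and in the second its log2 change was -0.03. Its 2 other tested probe sets had log2 changes of -0.63 and -1.497, and of -0.88 and -0.37, in the first and second pair. The former of these probe sets did not pass in the first pair and fell in the second (limma adjusted p = 0.188 and 0.00132). The latter passed in neither, so the probe sets of Zfp445 differed in the pair that fell.

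In 8 members both samples of mutant replicates 1 and 2 lay above all wild type samples and both of replicates 3 and 4 below. These 8 are 7.41% of the members, beside 4.36% of all tested probe sets and 6.12% of the genes at 150 or more. They were Zfp385a, Zfp598, Zfp106, Zfp91, Zfp51, Zfp513, Zfp46 and Zfp541. The turned order was seen in Zfp281 alone, 0.926%, beside 2.1% and 2.32%. Zfp46 read 1296.2, 1324.8, 1248.1 and 1182.5 in wild type samples, 1886.9 and 2231.5 in mutant replicates 1 and 2, and 809.8 and 801.8 in replicates 3 and 4. The mean over the mutant samples was thus 1432.5 against 1262.9 in wild type, with a log2 change of 0.03 (limma adjusted p = 0.973). Zfp541, known from spermatocytes, read between 214.2 and 244 in wild type samples, 374.6 and 761.3 in mutant replicates 1 and 2, and 178.4 and 169.7 in replicates 3 and 4. In 37 members replicates 3 and 4 lay below all wild type samples and replicates 1 and 2 did not, which is 34.3% of them, beside 24.9% of all tested probe sets and 30.5% of the genes at 150 or more. The converse held for 12, or 11.1%, beside 5.4% and 6.97%. Counted without regard to the other pair, replicates 3 and 4 lay below wild type in 65 members, 60.2% of them, beside 34.5% of all tested probe sets and 48.5% of the genes at 150 or more. Replicates 1 and 2 did so in 40 members, 37%, beside 15.1% and 25%. Above all wild type samples lay replicates 1 and 2 in 16 members (14.8%), beside 20.2% and 17.9%, and replicates 3 and 4 in 11 (10.2%), beside 24.9% and 18.3%.

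**Figure D5:**
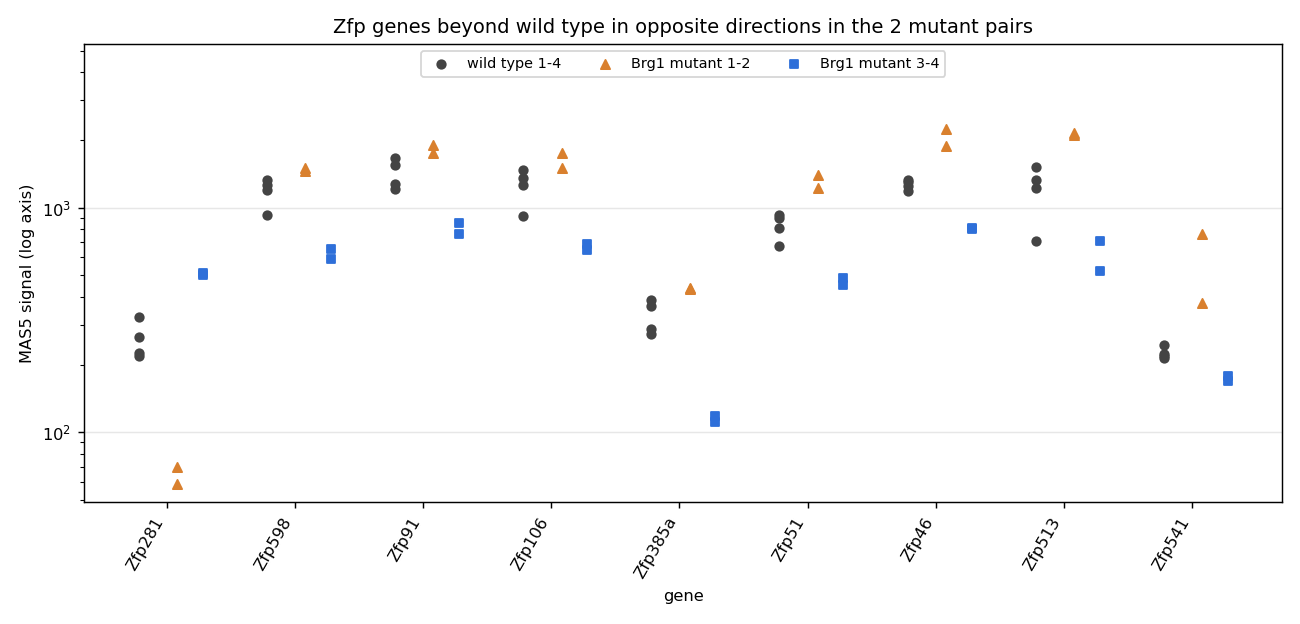
MAS5 signal (vertical log axis) by sample for the 9 Zfp genes whose mutant pairs lay beyond all wild type samples on opposite sides. For Zfp281 mutant replicates 1 and 2 are at 58.6 and 69.7 and replicates 3 and 4 above 500, and for the other 8 genes the order is turned.

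Of 9 listed genes of the early embryo and pluripotent cells, 6 were members and 0 passed (limma, with 1 higher and 1 lower at an unadjusted p under 0.05). With mutant replicates 1 and 2 alone 1 fell and 1 rose, and with replicates 3 and 4 alone 3 fell and 1 rose. In these comparisons 6.29% and 38.1% of the genes at 150 or more were called lower, and 4.76% and 12.9% higher. Over all samples 1569 of those 6328 genes were lower and 488 higher at an unadjusted p under 0.05 in limma. Zfp42, the pluripotency marker REX1, read 446, 430.1, 178.7 and 239.9 in wild type and 302.5, 218.1, 102.9 and 92.6 in mutant samples. The wild type samples formed a bright and a dim pair, and the log2 change of -0.93 did not pass (limma adjusted p = 0.222). Zfp296, active in pluripotent cells, read between 2848.5 and 3075.3 in wild type samples, 2522.2 and 2225.6 in mutant replicates 1 and 2, and 1057.1 and 1053.1 in replicates 3 and 4. It did not pass (log2 change -0.89, limma adjusted p = 0.116), though no sample overlapped. Zfp217, a partner of CtBP corepressors, read 1375.6 and 1147.5 in mutant replicates 1 and 2 and 346.4 and 382 in replicates 3 and 4, against 945.2 to 1163.7 in wild type. Zfp568, which represses a placental Igf2 transcript, read 355.4, 392.7, 339.2 and 395.9 in wild type and 650, 998.6, 481.6 and 469.1 in mutant samples. All mutant samples were above all wild type samples, and the log2 change of 0.74 did not pass (limma adjusted p = 0.124). With mutant replicates 1 and 2 alone Zfp568 rose 2.18-fold (limma adjusted p = 0.0327). Zfp322a, known from embryonic stem cells, had a log2 change of -0.61 (limma adjusted p = 0.309).

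Of 12 listed genes that act on RNA, ribosomes or mitosis, 9 were members and 0 passed (limma, with 0 higher and 1 lower at an unadjusted p under 0.05). With mutant replicates 3 and 4 alone 5 of the 9 fell, beside 38.1% of the genes at 150 or more and 50.9% of all members. At an unadjusted p under 0.05 over all samples, 1569 of the 6328 genes at 150 or more were lower and 488 higher (limma). Zfp622, a maturation factor of the large ribosomal subunit, had the brightest probe set of all members. It read 7707.9, 7812.3, 8486.7 and 6101.1 in wild type and 9891.2, 6953.7, 4675.4 and 4135.8 in mutant samples (log2 change -0.31, limma adjusted p = 0.580). Brightness of different probe sets is no measure of transcript amount. Zfp598, the ubiquitin ligase that senses collided ribosomes, read 1493.5 and 1450.9 in mutant replicates 1 and 2 and 590.5 and 652 in replicates 3 and 4, against 922.5 to 1326.8 in wild type. Zfp106, an RNA-binding protein gene, kept the same order, with 1496.5 and 1750.8, then 649.8 and 687, against 914.6 to 1475. Another tested probe set of Zfp106 read 353 and 337 in replicates 3 and 4 against 53.1 to 86.6 in wild type, and rose with that pair alone (log2 change 2.46, limma adjusted p = 0.000142). Zfp830, needed in the early mouse embryo, read 485.7, 405.2, 308.7 and 318.2 in wild type and 306, 156.1, 197.5 and 220.7 in mutant samples. The groups came close without overlapping, and it did not pass (log2 change -0.80, limma adjusted p = 0.102). Zfp207, the spindle factor BuGZ, had a log2 change of 0.30 (limma adjusted p = 0.472). Its 3 other tested probe sets disagreed in sign, at 0.09, -0.63 and -0.79, and none passed over all samples. On the last of them every mutant sample lay below every wild type sample. That probe set fell with mutant replicates 1 and 2 alone (log2 change -1.27, limma adjusted p = 0.0365), but not with replicates 3 and 4 alone (-0.31, limma adjusted p = 0.268). The nucleolar protein gene Zfp330, the double-stranded RNA binder Zfp346, and Zfp638 and Zfp385a had log2 changes between -0.53 and -0.24.

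Of 15 listed partners of chromatin and corepressors, 9 were members, and 1 of them, Zfp148, passed. With mutant replicates 1 and 2 alone 1 fell, and with replicates 3 and 4 alone 6 fell and 1 rose. Of the genes at 150 or more, 6.29% fell in the first comparison, and 38.1% fell and 12.9% rose in the second. Zfp131 read 1831.2, 1620.5, 1728.5 and 1966.2 in wild type and 1527.3, 868.3, 714 and 864.9 in mutant samples. No sample overlapped, but it did not pass (log2 change -0.91, limma adjusted p = 0.0651). Zfp644, a partner of the H3K9 methyltransferase G9a, read 777.2 and 162.6 in mutant replicates 1 and 2, above and below all wild type samples, which lay between 463.9 and 743.1. Zfp335, of H3K4 methyltransferase complexes, had a log2 change of -0.73 (limma adjusted p = 0.172). Zfp592 and Zfp532, which act with ZMYND8, had log2 changes of -0.54 and -0.41 (limma adjusted p = 0.244 and 0.469), and the ubiquitin ligase gene Zfp91 of -0.22 (limma adjusted p = 0.725). Zfp384 and Zfp110 had log2 changes of 0.28 and 0.37 (limma adjusted p = 0.554 and 0.558). The lists describe known roles and were drawn up with earlier results of these data known.

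Among the 10 members with the brightest probe sets in wild type were 3 not yet described. Zfp655 read 2966.6, 2676.7, 3342.1 and 3114.3 in wild type and 1825.6, 2423.3, 2176.1 and 1960.9 in mutant samples. The groups were apart, and the log2 change of -0.53 did not pass (limma adjusted p = 0.147). Zfp280b read between 2751.4 and 3018.9 in wild type, 2763.5 and 2952.8 in mutant replicates 1 and 2, and 1298.1 and 1452.2 in replicates 3 and 4. Mutant replicates 1 and 2 thus lay within the wild type range. Without them Zfp280b fell 2.09-fold (limma adjusted p = 0.000508). Zfp946 read 982.5, 1692.1, 510.4 and 461 in mutant samples against 1090.3 to 1586.2 in wild type (log2 change -0.76, limma adjusted p = 0.253).

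Spread among the wild type samples was small for most members. The SD of the log2 signal over the 4 wild type samples had a median of 0.271 and ran from 0.0505 to 1.84, beside a median of 0.268 for the genes at 150 or more. Over the 4 mutant samples the medians were 0.47 and 0.498. In 17 members the wild type SD was 0.5 or more, and in all 17 replicates 1 and 2 lay on one side of replicates 3 and 4. The same held for 74 of the 108 members (68.5%) and for 62.3% of the genes at 150 or more. Zfp560, Zfp616, Zfp979 and Zfp991 were lower in wild type replicates 1 and 2, and Zfp42, Zfp672 and Zfp771 were higher there. The labels give no batch. Leaving out either pair of wild type samples left 0 members called by limma, with 32 lower and 2 higher at an unadjusted p under 0.05 in the absence of the first pair, and 25 and 5 in the absence of the second. The median over the members was then -0.49 and -0.51.

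A few members had 1 dim mutant array. Zfp1 read 549.9, 566.4, 340.2 and 330.2 in wild type samples and 469.8, 10.9, 182 and 211.9 in mutant samples, and its log2 change of -1.87 did not pass (limma adjusted p = 0.238). Zfp672 read 9.4 in mutant replicate 2 and 56.4, 163 and 154.9 in the others, against 106 to 278.2 in wild type (log2 change -1.49, limma adjusted p = 0.272). These were the 2 members with any mutant array under the background bound, which stood at 37.7 on mutant replicate 2, and no member was under it on all mutant arrays.

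Zfp genes on either side of the level of 150 show what the choice left out. Just inside were Zfp790, Zfp74 and Zfp280c, with wild type means of 153, 158 and 161. Just outside were Zfp62, Zfp369 and Zfp994, with 147, 149 and 149. Of the 223 Zfp genes under 150, 131 were tested, of which 5 rose (3.82%) and 2 fell (1.53%), beside 2.98% and 3.58% of all tested probe sets. A choice by a low wild type reading favours a higher mutant one. Of the 5, Zfp28, Zfp105 and Zfp133-ps had wild type means of 25.2, 34.8 and 22.4 and mutant means of 96.1, 195 and 104. The filter used the mean over all 8 arrays, so these genes entered the test through their mutant signal. Their rise was thus favoured by the filter. The share of all genes under 150 was not computed. Zfp57, the KRAB zinc finger gene best known for holding imprints after fertilisation, was also among the Zfp genes under 150 and is no member. It read 90, 115.1, 167.9 and 181 in wild type and 287.7, 428.4, 352.8 and 296.1 in mutant samples, so that all mutant samples were higher. It rose 2.53-fold (log2 change 1.34, SE 0.286, limma adjusted p = 0.0264), and also against each mutant pair by itself (limma adjusted p = 0.0416 for replicates 1 and 2, 0.00935 for replicates 3 and 4). Leaving out 1 sample gave it a limma adjusted p between 0.0235 and 0.0884.

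Many Zfp genes stand beside another. By the order of protein-coding genes in the RefSeq table, 39 of 108 members (36.1%) had a Zfp gene as a next neighbour, against 126 of 215 Zfp genes under 150 that matched (58.6%), and the difference was not tested. Among the 39, 5 fell and Zfp979 rose, with a median log2 change of -0.34. Among the 69 others, 13 fell and 0 rose, with a median of -0.53. With mutant replicates 1 and 2 alone 2 of the 39 and 8 of the 69 fell, and with replicates 3 and 4 alone 15 and 40. Of the genes at 150 or more, 7.73% were called lower over all samples, 6.29% with replicates 1 and 2 alone and 38.1% with replicates 3 and 4 alone. Neighbouring members did not all go one way. Zfp623 (log2 change -1.05) and its neighbour Zfp707 (-1.15) were alike, whereas Zfp944 (-1.08) and Zfp946 (-0.76) enclose Zfp758, at 0.48. Zfp553 had log2 changes of -0.99 and -1.503 in the first and second mutant pair, and its neighbour Zfp771 had -0.80 and 1.05. The probe set of Zfp771 has a name ending in _x_at. On its other tested probe set the log2 changes were -0.19 and -0.49, and neither passed. Of these neighbouring genes, Zfp623 and Zfp553 passed over all samples, and the others did not on the probe sets used for the members. A second probe set of Zfp707 fell (log2 change -1.70, limma adjusted p = 0.0441).

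Zinc finger genes with BTB or SCAN domains were set beside them. Of 15 Zbtb genes with a wild type mean of 150 or more, 0 passed (limma, with 6 lower and 0 higher at an unadjusted p under 0.05), and their median log2 change was -0.39. Of 8 Zscan and Zkscan genes, 0 passed (limma, with 1 lower and 1 higher at an unadjusted p under 0.05), at a median of 0.19. At that unadjusted threshold 40 of the 108 Zfp genes were lower and 6 higher in limma, beside 1569 and 488 of the 6328 genes at 150 or more. All mutant samples lay below all wild type samples for 5 Zbtb genes and 2 Zscan or Zkscan genes, and above for 0 and 1. They lay below for 28 of the Zfp genes and above for 4, and for 18% and 5.31% of the genes at 150 or more. With mutant replicates 3 and 4 alone 7 Zbtb genes and 2 Zscan or Zkscan genes fell, and with replicates 1 and 2 alone 1 Zbtb gene rose. Of the genes at 150 or more, 38.1% fell in the first of these comparisons and 4.76% rose in the second. No test was made of the difference between these families and the Zfp genes.

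Some cofactors of KRAB zinc finger proteins fell as well. Of 19 listed genes tested, 4 fell, 0 rose and 15 did not pass (limma, with 7 lower and 0 higher at an unadjusted p under 0.05), and their median log2 change was -0.36. The 4 are 21.1% of the list, beside 3.58% of all tested probe sets and 7.73% of the genes at 150 or more. At an unadjusted p under 0.05, 1569 of the 6328 genes at 150 or more were lower and 488 higher (limma). Morc3, an ATPase that acts on silenced chromatin, read 1473.2, 1700.4, 1636.6 and 1455.4 in wild type and 651.8, 410.3, 683.2 and 672.2 in mutant samples, and fell 2.64-fold (limma adjusted p = 0.0142). Trim24 fell 2.66-fold (limma adjusted p = 0.0216), Pphln1, a subunit of the HUSH silencing complex, 2.26-fold (limma adjusted p = 0.0468) and Atf7ip, the partner of SETDB1, 1.90-fold (limma adjusted p = 0.0342). Without mutant replicates 3 and 4 the call held for Morc3 and Atf7ip. Of the 8 fits that leave out 1 sample, 5 kept the call of Morc3, 3 that of Trim24, 2 that of Atf7ip and 1 that of Pphln1. Trim28, which the KRAB domain binds, read 3693.2, 4665.2, 2700.9 and 3002.5 in wild type and 1852.4, 2151.9, 2933 and 2897.6 in mutant samples. The groups overlapped and it did not pass (log2 change -0.51, limma adjusted p = 0.258). Setdb1 had a log2 change of -0.76 (limma adjusted p = 0.0823).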

How the data were processed

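Each sample was read on 1 Affymetrix mouse array. The deposited values are intensities on a linear scale, a MAS5 signal per probe set per the submitters' processing notes, which name no version. With 4 arrays a group, precision is limited by their number.

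Values below 1 were raised to 1 before taking log2. Of the 45037 probe sets left once 64 controls were dropped, the 22518 with a mean log2 signal of at least 5.25 (the upper 50%) entered limma 3.58.1 (R 4.3.3; lmFit, then eBayes with trend; two-sided), with Benjamini-Hochberg adjustment over all of them and a threshold of 0.05. SE is the standard error from limma, and folds are the log2 changes turned to linear scale. The background bound is the 95th percentile of 27 Bacillus control probe sets on the array.

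Genes were named through the annotation table of the array (34945 probe sets with 1 symbol, 932 with several, 9160 with none), and the gene identifiers of all 108 members matched the RefSeq table of GRCm38.p6. Promoter windows were aligned with Biopython 1.88. Protein sequences were not used here.

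The members and lists were chosen with earlier results of these data known. Named were the called members with the 12 largest falls and rises, the 10 with the highest wild type mean, the 3 genes on each side of 150 and the members of the role lists. Other genes, among them the remaining called members, Zfp445 and Zfp982, were named after their values were seen.

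Alternatives covered centring, quantile normalization, filters, the intensity trend, array weights, a replicate block, the choice of members and leaving out samples. Oviduct markers summed to between 525 and 964.7, but 1719.4 and 1596.6 in mutant replicates 3 and 4, blood markers to between 152.7 and 231.7, but 621 and 707, and sperm markers to between 128 and 296.9. The fit was tested on simulated data.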

Additional observations from a re-analysis of the deposited data

Results flagged for a closer look

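One group of 4 samples held a sample far from the rest, out of 84 groups examined (42 named genes in wild type and in mutant samples, log2 signal). For Zfp932, mutant replicate 1 read 191.3 while the other mutant samples read 280.4, 277.7 and 269.5, and its gap to the nearest of them was 0.896 of the group's range, above Dixon's critical value for 4 samples. Chance flags about 1 in 20 groups. Without mutant replicate 1 the log2 change of Zfp932 was -1.16 (limma adjusted p = 0.036).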

How the results depend on the processing

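The number of called members depended on the setting more than the median did. Of 18 lower and 1 higher, array weights gave 66 and 9 (weights of 0.213 and 0.171 for mutant replicates 1 and 2 and 3.17 for replicate 3), where 6387 and 5099 of all tested probe sets were called against 807 and 671. Testing all 45037 probe sets gave 11 lower and 0 higher, with 589 and 642 of all probe sets. Median centring and a fit with no intensity trend gave 0 higher, with 18 and 12 lower. Of all tested probe sets, median centring called 997 lower and 528 higher, and the fit with no trend 639 and 563. Mutant replicates 3 and 4 alone gave 55 lower and 3 higher, and replicates 1 and 2 alone 10 lower and 3 higher. Of all tested probe sets these fits called 5232 lower and 4126 higher, and 701 and 810. Leaving out 1 replicate gave 2 to 29 lower and 0 to 0 higher, with 33 to 1515 and 40 to 1411 of all tested probe sets. With the replicate block 0 members passed in limma in either direction, with 37 lower and 3 higher at an unadjusted p under 0.05, and Zfp703 and Zfp574 each had a limma adjusted p of 0.0636. Of all probe sets the block left 5 lower and 10 higher. Same-numbered samples share only a number. Leaving out wild type replicates 1 and 2, or 3 and 4, was chosen after seeing the data and gave 0 lower and 0 higher, with 3 and 10 of all tested probe sets in the first case and 0 and 0 in the second. Members chosen by the mutant mean, by the mean of all 8 arrays and by a wild type mean of 100 gave 4, 3 and 3 higher, with 13, 17 and 19 lower. The shares of all genes chosen by these rules were not computed. The median stayed below 0 in every setting tried, from -0.749 to -0.277. The median of all tested probe sets was -0.05, and -0.14 after quantile normalization, -0.15 after median centring and -0.01 after 75th percentile centring. Zfp281 turned from -0.50 to 0.89 under array weights and to 0.99 without mutant replicates 1 and 2. The cause of these moves was not tested. Of 882 values of named genes under the alternatives, 695 kept their direction and side of the threshold, 17 changed sign without passing in either setting, 122 lost the call, 46 gained it and 2 reversed.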
